A study of Lepidobatrachus laevis with 14 samples.

Results

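The genes described here encode the collagens, laminins and fibronectin of the developing stomach of Lepidobatrachus laevis, Budgett's frog. They were taken from the deposited count table, whose rows are named for human UniProt entries, by the entry name of each collagen alpha chain, each laminin alpha, beta or gamma chain, and fibronectin. The table held 50 of the 58 human entries of these families, among 13574 reviewed entry names in all. The 50 entries had 95 rows, and 26 of them had more than 1, so the row of highest mean count stood for each entry. By class, 11 of 11 fibrillar collagens were present, 17 of 20 basement membrane chains (4 chains of collagen IV, 11 laminins, and collagens XV and XVIII), and 22 of 27 others, the last including fibronectin. Of the 50, 46 passed the filter on low counts used in the main test over 14 libraries. The others were too low for that test. Among them, COL19A1 had 3 counts and COL26A1 had 77 in total over 14 libraries. COL26A1 did pass the filter in the tests of 47 genes below, within pairs and for a side difference that varies by source.

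The study measured RNA by strand-specific sequencing in the left and right sides of the stomach, with 7 libraries per side. The animals were of Gosner stage 19, labelled wild-type in genotype and wild-caught in background. The series title names the transcription factor Single-minded 2 and left-right asymmetric stomach shape, and the samples analysed here carry no treatment or mutation. In 5 libraries per side, numbered as replicates 1, 2, 3, 5 and 6, the tissue came from a single stomach, and the titles join these into 5 left-right pairs. The other 2 per side, replicates 7 and 8, pooled tissue from 5 stomachs. The single-stomach libraries were built at the NCSU Genomic Services Laboratory and the pools at HudsonAlpha, so pooling and facility cannot be told apart. No label states that a pair is 1 animal.

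Collagens are triple helices of 3 alpha chains. The fibrillar types form the banded fibrils that give connective tissue its tensile strength, whereas collagen IV and the cross-shaped laminin trimers assemble into the basement membrane, the sheet beneath epithelia. Fibronectin is a secreted glycoprotein that cells pull into fibrils through integrins, and it guides cell movement in embryos. In the embryonic gut the basement membrane lies between the endodermal epithelium and the mesenchyme that surrounds it. Left-right differences in matrix and in the tissue next to it have been studied as part of gut bending in vertebrate embryos.

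Library totals were 12174670 to 57498697 counts for left libraries, 14836223 to 62707669 for right ones, and 12174670 to 20022774 for the 4 pools. The first principal component, 48.0% of the variance, separated pools from single stomachs, and the second, 17.7%, separated replicates 1 to 3 from 5 and 6 and set pool left 8 apart (-118 on its scale, 6.88 to 28.8 in the other pools). All 7 foregut epithelium markers and all 7 gut mesenchyme markers were detected. Markers of other tissues were present too. The summed level of 5 epidermal markers was 2060 to 6333 CPM (counts per unit of library size in the usual CPM scale, with library sizes adjusted by the trimmed mean of M-values, TMM) in single stomachs, and 100.1, 33.6, 1651 and 24.1 in pools left 7, right 7, left 8 and right 8. TP63, an epidermal regulator, was at 0 in right 7. The summed level of 4 mesothelial markers was 249 to 656 CPM in single stomachs and 13.9, 20.4, 111 and 12.5 in the same pools. The summed level of 4 liver markers was 1250 to 8855 CPM in single stomachs and 16328 to 22769 in pools. In bulk tissue, fewer cells of a type and less RNA per cell cannot be told apart.

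As a share of library totals, and here with every row of an entry summed in place of its highest row, the genes together took 0.626% ± 0.0762 of counts in single-stomach libraries (SD, n = 10) and 0.242% ± 0.0668 in pools (SD, n = 4). Fibrillar collagens took 0.179% ± 0.0409 and 0.0332% ± 0.00771 respectively. Basement membrane chains took 0.182% ± 0.0262 and 0.106% ± 0.0370. Fibronectin alone took 0.177% ± 0.0410 and 0.0871% ± 0.0281. Between sides, all the genes took 0.530% ± 0.231 on the left and 0.503% ± 0.165 on the right (SD, n = 7 each), a spread that includes the gap between sources. In single stomachs the left and right shares were 0.659% ± 0.0849 and 0.593% ± 0.0562 (SD, n = 5 each). In pools they were 0.207% ± 0.00387 and 0.277% ± 0.0920 (SD, n = 2 each), the opposite order. These shares were not tested. Levels of different genes are not ranked here, because the count table has no transcript lengths.

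**Figure D1:**
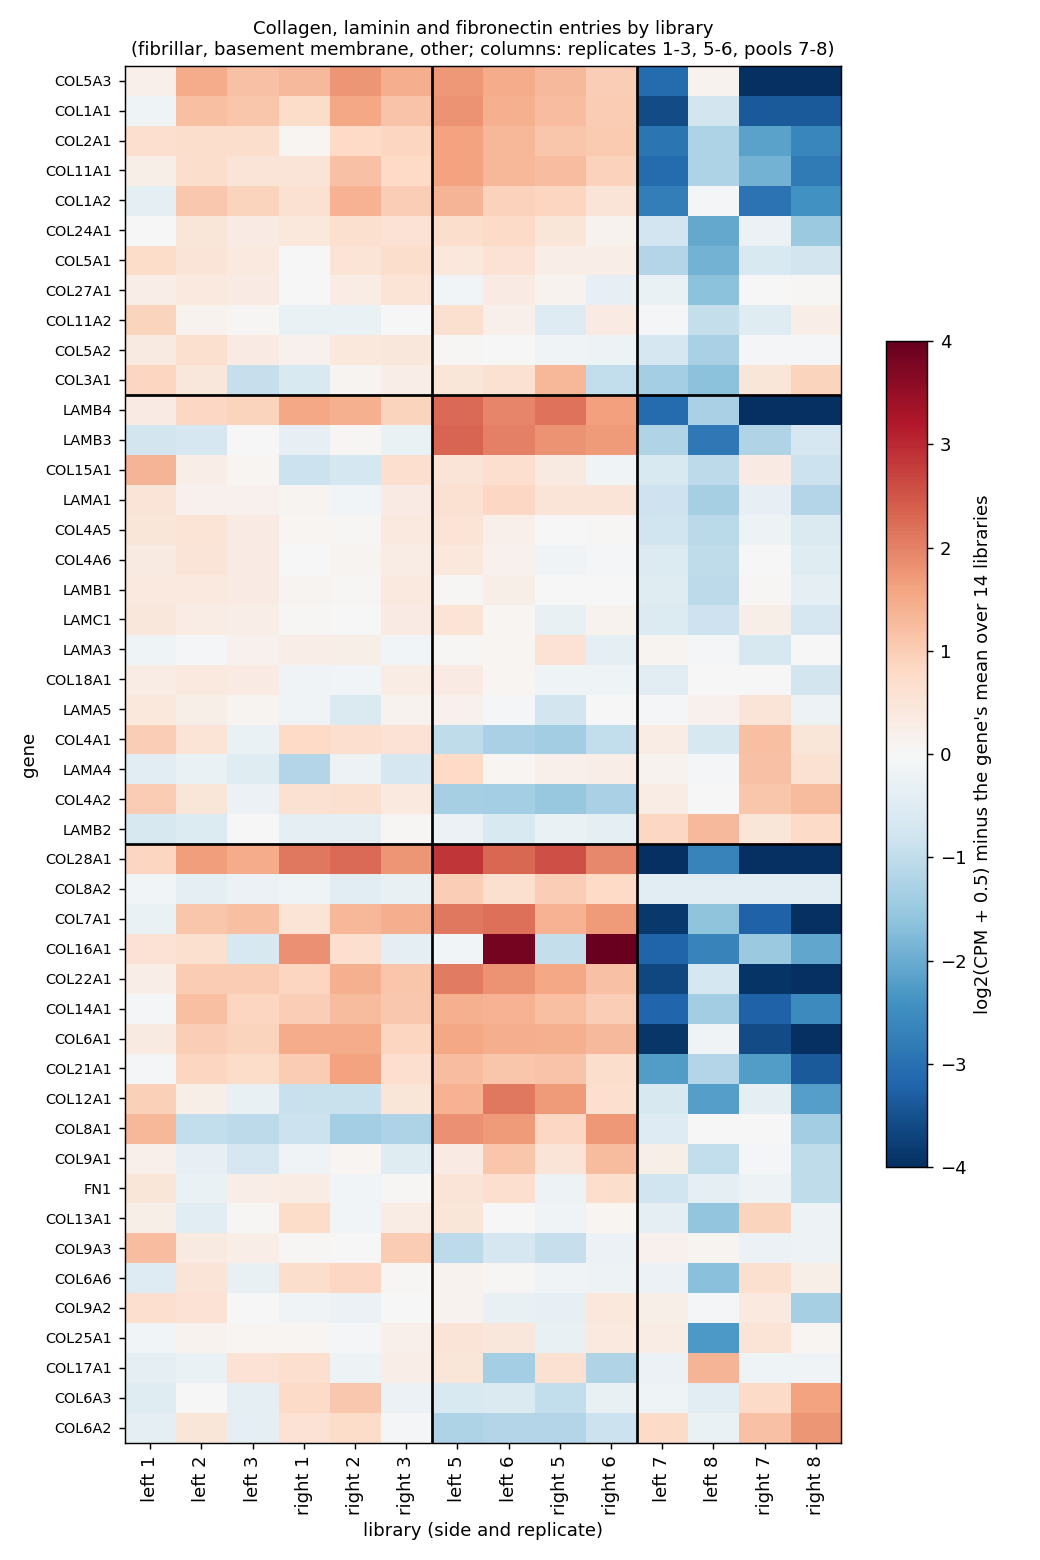
Level of each of 46 tested genes (rows, grouped as fibrillar, basement membrane and other) in each of 14 libraries (columns), as log2(CPM + 0.5) minus the gene's mean over all libraries. Most fibrillar and other collagens are low in the 4 pools, left 8 is the highest pool for COL1A1 (164 CPM) and COL5A3 (26.1 CPM), and COL4A1 and COL4A2 are low in replicates 5 and 6.

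No collagen, laminin or fibronectin gene differed between the left and right sides over the 14 libraries. In a quasi-likelihood test (edgeR) that also fitted library source, with Benjamini-Hochberg adjustment over 23271 rows, 0 of 46 genes and 0 rows (0% of rows) had an adjusted p under 0.05, and DESeq2 gave 0 too. At an unadjusted p under 0.05 there were 2 of 46 genes, COL6A3 and COL18A1, and 1.06% of rows. Log2 folds, left over right, had a median of 0.07 over the 46 genes, with 27 above 0 and 19 below. Over all rows the median was 0.01, and 52.9% were above 0. By class the medians were 0.12 for fibrillar collagens (6 of 11 above 0), 0.04 for basement membrane chains (9 of 15) and 0.12 for the others (12 of 20). The left and right ranges overlapped for each of these genes. Counts were also simulated for these 14 library sizes, with no difference between sources, library sets or pairs, and with changes only in genes of higher counts. There the test recovered 52 of 100 genes changed 2-fold and 89 of 100 changed 4-fold. Recovery in the real libraries, which do differ in these ways, can be other than this. A difference of 2-fold, or even of 4-fold, can therefore have been missed, as can a smaller one. Recovery of genes with low counts was not tested.

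COL6A3, a large chain of the beaded-filament collagen VI, had the lowest unadjusted p. On the left it ranged from 1.27 to 2.25 CPM with a median of 1.52. Right libraries spanned 0.868 to 7.79 with a median of 4.11. The high values were those of right 1, 2, 7 and 8, while right 3 and 6 lay inside the left range and right 5 below it. Its log2 fold was -1.07 ± 0.37 (SE, unadjusted p = 0.0125, edgeR adjusted p = 1). The row used held 38.4% of the counts of the COL6A3 entry, which had 4 rows. With rows summed by entry name, 1 of 46 genes had an unadjusted p under 0.05 in edgeR, beside 144 of 12515 rows. The other collagen VI chains had folds of -0.63 ± 0.36 for COL6A2, -0.56 ± 0.28 for COL6A6 and 0.54 ± 0.65 for COL6A1.

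COL18A1, the collagen XVIII chain whose C-terminal fragment is endostatin, ranged on the left from 64.1 to 113.9 CPM with a median of 107.5. Its right levels were 52.0 to 105.3 with a median of 78.9. Single-stomach left libraries lay at 92.0 to 113.9, and right libraries at 76.5 to 105.3, so right 3 was the one right library inside the left single-stomach range. Its log2 fold was 0.28 ± 0.13 (SE, unadjusted p = 0.0474, edgeR adjusted p = 1). LAMA5, the laminin alpha chain of mature epithelial basement membranes, had a median of 223 CPM on the left (189 to 262) and 179 on the right (118 to 281), a log2 fold of 0.26 ± 0.17, and of -0.17 in the pools alone. COL22A1, a collagen of tissue junctions, had medians of 34.1 on the left (0.866 to 72.5) and 36.4 on the right (0.577 to 49.2). Its fold was 0.76 ± 0.51 over the 14 libraries, but 0.03 ± 0.18 within the single-stomach pairs. For each of these 3 genes the left and right ranges overlapped.

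Fibronectin (FN1) had a median of 1315 CPM on the left (621 to 1733) and 1016 on the right (542 to 1786), a log2 fold of 0.12 ± 0.18. The collagen I chains, COL1A1 and COL1A2, had folds of 0.53 ± 0.42 and 0.49 ± 0.42, and COL2A1, the main collagen of cartilage and of the notochord sheath, 0.31 ± 0.25. For COL3A1, the fibrillar collagen of distensible tissues, the fold was -0.46 ± 0.47, although within the single-stomach pairs it was 0.29 ± 0.44 and in the pools alone -2.34. The difference of sides between sources had an unadjusted p of 0.00857 and an edgeR adjusted p of 0.404 for COL3A1. Of the basement membrane genes, LAMA1, LAMB1 and LAMC1, which together encode laminin-111 of early embryos, had folds of 0.03 ± 0.17, -0.05 ± 0.15 and 0.05 ± 0.17. COL4A1 and COL4A2, the chains found in nearly all basement membranes, had folds of -0.39 ± 0.45 and -0.31 ± 0.48. None of these exceeded 2 standard errors.

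The single-stomach pairs were compared with the pair as a block, since same-numbered left and right libraries deviated together. No gene passed in edgeR (0 of 47 genes, 0% of 23768 rows), and DESeq2 passed 0.408% of rows and 0 of these genes. At an unadjusted p under 0.05 there were 7 of 47 genes, against 5.72% of rows. Of these, 6 were higher on the left (COL18A1, COL4A5, COL4A6, LAMA5, COL8A1 and LAMB1), where 2.42% of rows were, and COL6A2 was lower, where 3.30% of rows were. The first were all basement membrane chains except COL8A1, a short-chain network collagen.

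In each of the 5 pairs the left level of COL18A1 exceeded the right. Its left and right levels were 108 and 78.9 CPM in pair 1, 114 and 81.1 in pair 2, 109 and 105 in pair 3, 109 and 76.5 in pair 5, and 92.0 and 77.0 in pair 6. The difference was thus smallest in pair 3, larger in pair 6 and largest in pairs 1, 2 and 5, with a log2 fold of 0.35 ± 0.09 (unadjusted p = 0.00301, lowest DESeq2 adjusted p of these genes 0.125). COL4A6, a collagen IV chain of a second network, was also higher in 5 of 5 pairs, with left-to-right ratios of 1.01 to 1.49 and a fold of 0.32 ± 0.09. COL4A5, its partner chain, was higher in 4 of 5, with ratios of 0.967 to 1.45 and a fold of 0.31 ± 0.10. Over all rows 3.53% were higher on the left in 5 of 5 pairs, and here it was 2 of 46 genes.

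LAMA5 was 262 and 179 CPM on the left and right in pair 1, 232 and 131 in pair 2, 211 and 219 in pair 3, 223 and 118 in pair 5, and 190 and 193 in pair 6. It was thus higher on the left in pairs 1, 2 and 5 and near equal in pairs 3 and 6, with a fold of 0.44 ± 0.15 (edgeR, unadjusted p = 0.0191). LAMB1 had ratios of 0.967 to 1.26 and a fold of 0.17 ± 0.07. LAMA1 and LAMC1 had folds of 0.18 ± 0.09 and 0.29 ± 0.13, with unadjusted p of 0.0677 and 0.0571. In pair 3 these 4 laminin ratios and that of COL4A5 were all between 0.900 and 0.967. The basement membrane class had a median fold of 0.18 in the pairs, with 10 of 15 above 0, while over all rows the median was 0.00 and 49.6% were above 0.

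Of the collagen VI chains, COL6A2 alone had an unadjusted p under 0.05 in the pairs. COL6A2 was 15 and 29.5 CPM on the left and right in pair 1, 28.1 and 33.0 in pair 2, 15.4 and 19.0 in pair 3, 8.11 and 8.40 in pair 5, and 8.55 and 10.6 in pair 6. It was lower on the left in 5 of 5 pairs, as were 3.78% of rows, with a fold of -0.38 ± 0.13 (edgeR, unadjusted p = 0.0170). COL6A3 had ratios of 0.424, 0.474, 0.900, 1.30 and 0.824 in pairs 1, 2, 3, 5 and 6. COL6A1 had ratios of 0.455, 0.709, 1.02, 1.08 and 1.12, above 1 in 3 pairs, and COL6A6 had ratios above 1 in 2 pairs. The fitted folds of the 4 chains were under 0, with a median of -0.32, and none passed the adjusted threshold.

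Collagen I split the pairs. COL1A1 was 245 and 452 CPM on the left and right in pair 1, 625 and 805 in pair 2, 592 and 598 in pair 3, 954 and 639 in pair 5, and 728 and 557 in pair 6. It was lower on the left in pairs 1 and 2, nearly equal in pair 3 and higher in pairs 5 and 6, so its fold over the pairs was -0.06 ± 0.19. COL1A2 followed the same order, at 71.0 and 140 CPM in pair 1 and 238 and 167 in pair 5. COL28A1, a collagen with von Willebrand factor domains, had ratios of 0.421, 0.654, 0.826, 1.20 and 1.29. The summed epidermal markers were 2060 and 4939 CPM in pair 1, 3938 and 5947 in pair 2, 4026 and 3443 in pair 3, 5276 and 6333 in pair 5, and 4962 and 4797 in pair 6. Their part in these pair differences was not tested. FN1 was 1507 and 1337, 911 and 1016, 1315 and 1116, 1563 and 946, and 1733 and 1786 CPM in the 5 pairs, and was higher on the left in 3 of them.

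**Figure D2:**
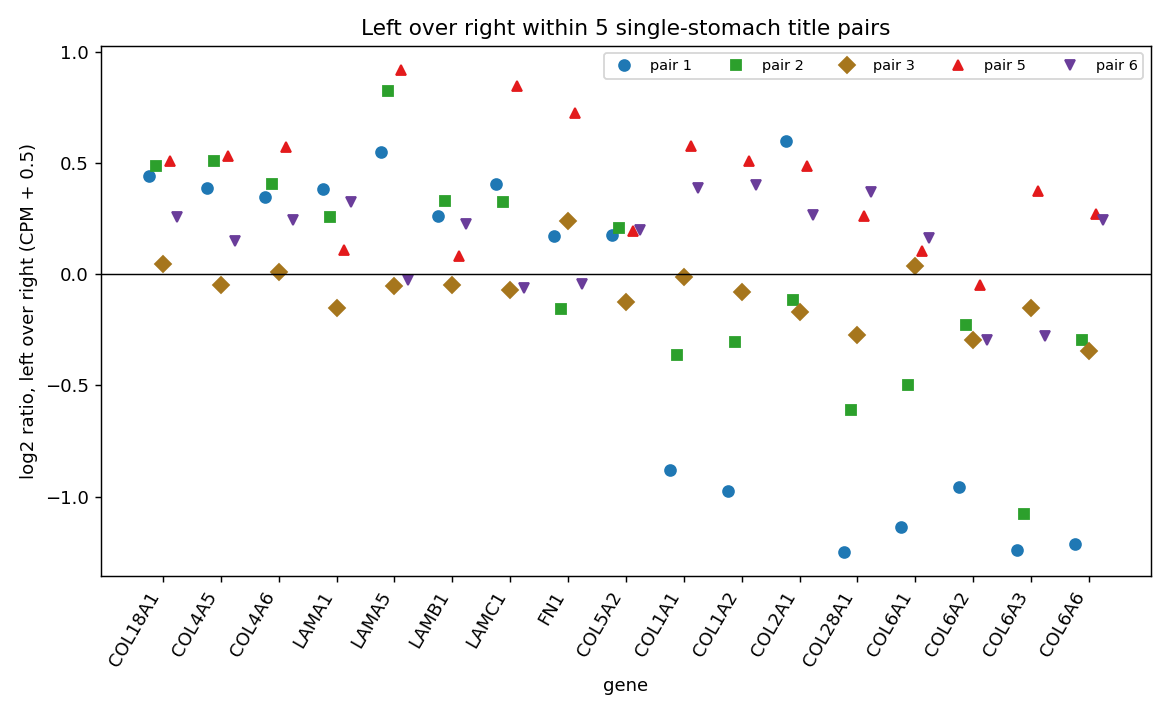
Log2 ratio of left over right, from CPM + 0.5, in each of 5 single-stomach pairs (markers) for 17 genes (x axis). COL18A1 and COL4A6 lie above 0 in all 5 pairs, COL6A2 lies below 0 in all 5, and collagen I runs from below 0 in pair 1 (COL1A1 ratio 0.543) to above 0 in pair 5 (1.49).

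Between library sources the differences were far larger. Against the single-stomach libraries, 24 of 46 genes were lower in the pools and 2 were higher (edgeR, adjusted p under 0.05, side as a term), where 17.7% of all rows were lower and 12.7% higher. The median log2 fold, pools over single stomachs, was -0.88 over the genes and -0.10 over all rows. The pool and single-stomach ranges did not overlap for 16 of the 46 on the lower side, against 11.0% of rows, and for 1 on the higher side, against 6.85%. Leaving out each library in turn kept 20 of the 24 lower calls and 1 of the 2 higher calls in every one of 14 fits. The fit counts both libraries of a title pair as independent, although their deviations correlated, weakly so in some pairs. Its p-values can therefore be too small. In left libraries alone 16 genes were lower and 1 was higher, and in right libraries alone 13 and 1. Rows called in either direction were then 2694 of 23463 and 2675 of 23538. The edgeR adjusted p of COL2A1 was 0.0175 in left libraries alone. The epidermal, mesothelial and liver marker levels given above move with the same contrast: 4 of 5 epidermal and 2 of 4 mesothelial markers were lower in pools, and 4 of 4 liver markers higher. Their part in these differences was not tested.

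All 11 fibrillar collagens had a fold below 0, and 8 of them passed, with a class median of -1.56. COL2A1 had the lowest adjusted p, in a row that held 44.1% of the counts of its entry. It was 80.0, 81.1, 81.2, 154 and 126 CPM in left single stomachs and 52.7, 88.0, 91.5, 110 and 105 in right ones, numbered 1, 2, 3, 5 and 6. In the pools it was 6.24 in left 7, 11.1 in right 7, 20.8 in left 8 and 7.79 in right 8. Every pool lay below every single-stomach library, with a log2 fold of -3.09 ± 0.34 (adjusted p = 3.18e-05). COL11A1, a chain of the collagen that nucleates type II fibrils, ran from 67.8 to 176 CPM in single stomachs and was 6.41, 15.1, 23.9 and 7.72 in left 7, right 7, left 8 and right 8. Its fold was -3.09 ± 0.38 (adjusted p = 6.43e-05), in a row that held 36.2% of the counts of its entry. The cartilage markers MATN1 and HAPLN1 were near 0 throughout, while SOX9, from the same list, was at 3.22 to 20.3 CPM over the 14 libraries. Of 4 notochord markers 1, SHH, was in the table, which gut endoderm also expresses. The part of such cells in these levels was not tested.

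COL1A1 ran from 245 to 954 CPM in single stomachs and was 22.4, 26.3, 164 and 26.1 in left 7, right 7, left 8 and right 8. The pools again did not reach the single stomachs, and left 8 was the nearest to left 1, the lowest of them. The fold was -3.52 ± 0.56 (adjusted p = 0.000399), and -4.66 without left 8. COL1A2 ran from 71.0 to 243 CPM and was 13.1, 11.4, 90.0 and 16.7 in the same pools, a fold of -2.53 ± 0.53 (adjusted p = 0.00255) and of -3.67 without left 8. Here left 8 lay inside the single-stomach range. COL5A3, a chain of the collagen V that sets fibril diameter, had a fold of -3.53 ± 0.93 (-6.11 without left 8, -2.91 without right 7 and -2.90 without right 8), and COL5A1 and COL5A2 had -1.54 ± 0.23 and -0.69 ± 0.22. COL5A2 lost its call without left 7 (adjusted p up to 0.0849 over the fits that leave out 1 library) and without left 8. COL24A1, a minor fibrillar collagen, fell by 1.56 ± 0.30. COL3A1 was 5.63, 21.7, 4.55 and 28.7 CPM in the pools and 7.40 to 39.1 in single stomachs, a fold of -0.52 ± 0.53 that did not pass. COL27A1 and COL11A2 had folds of -0.86 ± 0.53 and -0.76 ± 0.67 and did not pass either. In right libraries alone the folds of COL3A1 and COL11A2 were 0.46 and 0.04, above 0, and in left libraries alone that of COL3A1 was -2.03 (edgeR adjusted p = 0.0352).

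In the basement membrane class 7 of 15 genes were lower in pools and 1 was higher, with a median fold of -0.59. LAMA1 was 314, 246, 249, 339 and 392 CPM in left single stomachs and 240, 206, 277, 315 and 313 in right ones. In left 7, right 7, left 8 and right 8 it was 123, 173, 87.7 and 98.0. All pools lay below all single stomachs, with a fold of -1.26 ± 0.20 (edgeR adjusted p = 0.000462). LAMB1 was 316 to 423 CPM in single stomachs and 228, 333, 154 and 245 in the pools, a fold of -0.63 ± 0.17 (adjusted p = 0.0106), and right 7 lay inside the single-stomach range. LAMC1 was 164 to 295 and 137, 238, 112 and 127, a fold of -0.59 ± 0.20 (adjusted p = 0.0344) that passed in 5 of the 14 fits that leave out 1 library, with adjusted p up to 0.119. LAMA5 did not follow: its pools were at 189, 281, 224 and 172 CPM and its single stomachs at 118 to 262, with a fold of 0.17 ± 0.18 (adjusted p = 0.517).

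LAMB2, the beta chain that replaces LAMB1 in mature laminins of muscle, kidney and vessels, was the one gene that pools held above every single stomach. It was 6.03, 6.42, 9.67, 7.99 and 6.18 CPM in left single stomachs and 7.33, 7.29, 9.89, 7.93 and 7.11 in right ones. In left 7, right 7, left 8 and right 8 it was 17.2, 13.7, 24.1 and 16.7. The fold was 1.24 ± 0.17 (edgeR adjusted p = 0.000153). LAMA4, the alpha chain of vessel and muscle laminins, was 1.47 to 7.23 CPM in single stomachs and 4.42, 9.45, 3.79 and 6.28 in pools. Its fold of 0.69 ± 0.36 did not pass (edgeR adjusted p = 0.159). Against replicates 1 to 3 alone, where LAMA4 was lower than in replicates 5 and 6, the fold was 1.18. That split was drawn from these data, so no test is given. LAMB3, the beta chain of laminin-332 in skin, and the entry LAMB4 had folds of -2.77 ± 0.87 and -4.81 ± 0.82, the second being -6.40 without left 8. LAMB3 lost its call without left 7, right 7 or left 8 (adjusted p up to 0.0690). The endothelial marker sum was 132 to 274 CPM in single stomachs and 71.5 to 195 in pools, and the skeletal muscle sum 2.71 to 12.6 and 8.41 to 24.8. Of 6 endothelial markers 1 was higher in pools and 2 were lower. PECAM1 was 4.09 to 12.3 CPM in single stomachs and 11.1 to 18.9 in pools, and KDR 30.9 to 51.5 and 3.71 to 24.9. The smooth muscle sum was 143 to 459 and 116 to 271, with 1 of 4 tested markers lower, 0 higher and 3 folds above 0. Their part in the laminin differences was not tested.

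The collagen IV chains divided by pair. COL4A5 was 255 to 373 CPM in single stomachs and 144, 220, 120 and 172 in left 7, right 7, left 8 and right 8, so the groups did not overlap, with a fold of -0.90 ± 0.17 (edgeR adjusted p = 0.00116). COL4A6 had a fold of -0.68 ± 0.18 (adjusted p = 0.00973). COL4A1 was 3.31 to 19.3 CPM in single stomachs and 11.6, 22.7, 5.91 and 13.4 in pools, and COL4A2 was 2.42 to 16.6 and 9.88, 17.7, 7.81 and 19.8. Their folds were 0.32 ± 0.50 and 0.72 ± 0.51 and did not pass. Against replicates 5 and 6 alone the folds were 1.63 and 2.20. Both genes were lowest in those libraries, and the split was drawn from these data, so no test is given. Frog reads are listed against the closest human entry, so counts of one collagen IV gene can be listed under a related chain. COL18A1, at 64.1, 86.7, 86.3 and 52.0 CPM in the pools, had a fold of -0.38 ± 0.14 that did not pass (adjusted p = 0.0592) but did without right 7 (0.00911). COL15A1, the related collagen XV chain, had -1.36 ± 0.90, and -3.42 without right 7 (edgeR adjusted p = 0.0302).

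Among the other genes 9 of 20 were lower in pools and 1 was higher, with a median fold of -1.15. Of the FACIT collagens, which sit on the surface of fibrils, all 8 tested had a fold below 0, and 5 passed. COL14A1 was 38.7, 91.5, 72.2, 109 and 106 CPM in left single stomachs and 78.9, 97.3, 85.0, 92.0 and 78.7 in right ones, against 3.99, 3.77, 15 and 6.35 in left 7, right 7, left 8 and right 8. All pools lay below all single stomachs, with a fold of -3.58 ± 0.39 (edgeR adjusted p = 3.28e-05). COL22A1, COL21A1, COL16A1 and COL12A1 had folds of -4.07 ± 0.70, -3.33 ± 0.44, -4.72 ± 1.27 and -2.08 ± 0.66. Without left 8 the folds of COL14A1, COL22A1 and COL21A1 were -4.22, -5.92 and -3.93. COL16A1 was at 119 and 132 CPM in left 6 and right 6 and at 3.92 to 29.9 in the other single stomachs, and its fold was -4.05 without left 6 and -3.77 without right 6. COL12A1 lost its call without left 7, left 8 or right 8 (adjusted p up to 0.0810), and its fold was -2.74 without right 7. The collagen IX chains did not pass, with adjusted p of 0.218 for COL9A1, 0.740 for COL9A2 and 0.724 for COL9A3. The folds of COL9A2 and COL9A3 were above 0 in single alternatives, 0.11 without right 8 and 1.11 against replicates 5 and 6 respectively.

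COL28A1 had the largest fold of a passing gene. It was 151, 264, 233, 600 and 406 CPM in left single stomachs and 360, 404, 282, 500 and 314 in right ones. In left 7, right 7, left 8 and right 8 it was 3.99, 0.343, 12.7 and 0.577, a fold of -6.63 ± 0.86 (edgeR adjusted p = 9.88e-05) and of -7.92 without left 8. COL7A1, the anchoring fibril collagen beneath skin, was 6.48 to 38.3 CPM in single stomachs and 0.0866, 0.392, 2.27 and 0 in the pools, a fold of -5.11 ± 0.77 and of -6.84 without left 8. COL17A1, a transmembrane collagen of epithelial hemidesmosomes, behaved otherwise. It was 9.11 to 38.6 CPM in single stomachs and 20.4, 21.5, 61.9 and 21.6 in pools, with a fold of 0.29 ± 0.41 (adjusted p = 0.631) and of -0.30 without left 8. COL8A2 had 0 counts in all 4 pools and 0.333 CPM on average in single stomachs, at least 6.55-fold lower against a floor of 3 counts over the pools together. That bound rests on replicates 5 and 6, at 0.554 to 0.852 CPM, since replicates 1 to 3 were at 0 to 0.130. Its edgeR test did not pass (adjusted p = 0.0594), while DESeq2 passed it (adjusted p = 0.00740).

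The collagen VI chains moved apart between sources. COL6A1 was 12.3 to 28.7 CPM in single stomachs and 0.173, 0.343, 8.56 and 0.0721 in left 7, right 7, left 8 and right 8, a fold of -3.57 ± 0.86 (edgeR adjusted p = 0.00620) and of -6.80 without left 8. COL6A2 was 8.11 to 33.0 CPM in single stomachs and 33.9, 45.0, 16.4 and 67.9 in the same pools, a fold of 1.14 ± 0.38 (adjusted p = 0.0354). It lost its call without left 7, right 7 or right 8, with adjusted p up to 0.140. COL6A3 was 0.868 to 5.30 CPM in single stomachs and 1.91, 4.11, 1.52 and 7.79 in pools, a fold of 0.67 ± 0.41. COL6A6 had -0.30 ± 0.31. COL6A1, COL6A2 and COL6A3 are the partners of the usual collagen VI trimer.

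FN1 was 911 to 1786 CPM in single stomachs, with a median of 1326, and 621, 939, 826 and 542 in left 7, right 7, left 8 and right 8. Right 7 alone reached the single-stomach range. The mean was 1323 ± 320 CPM in single stomachs (SD, n = 10) and 732 ± 183 in pools (SD, n = 4), a log2 fold of -0.85 ± 0.21 (edgeR adjusted p = 0.00728).

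**Figure D3:**
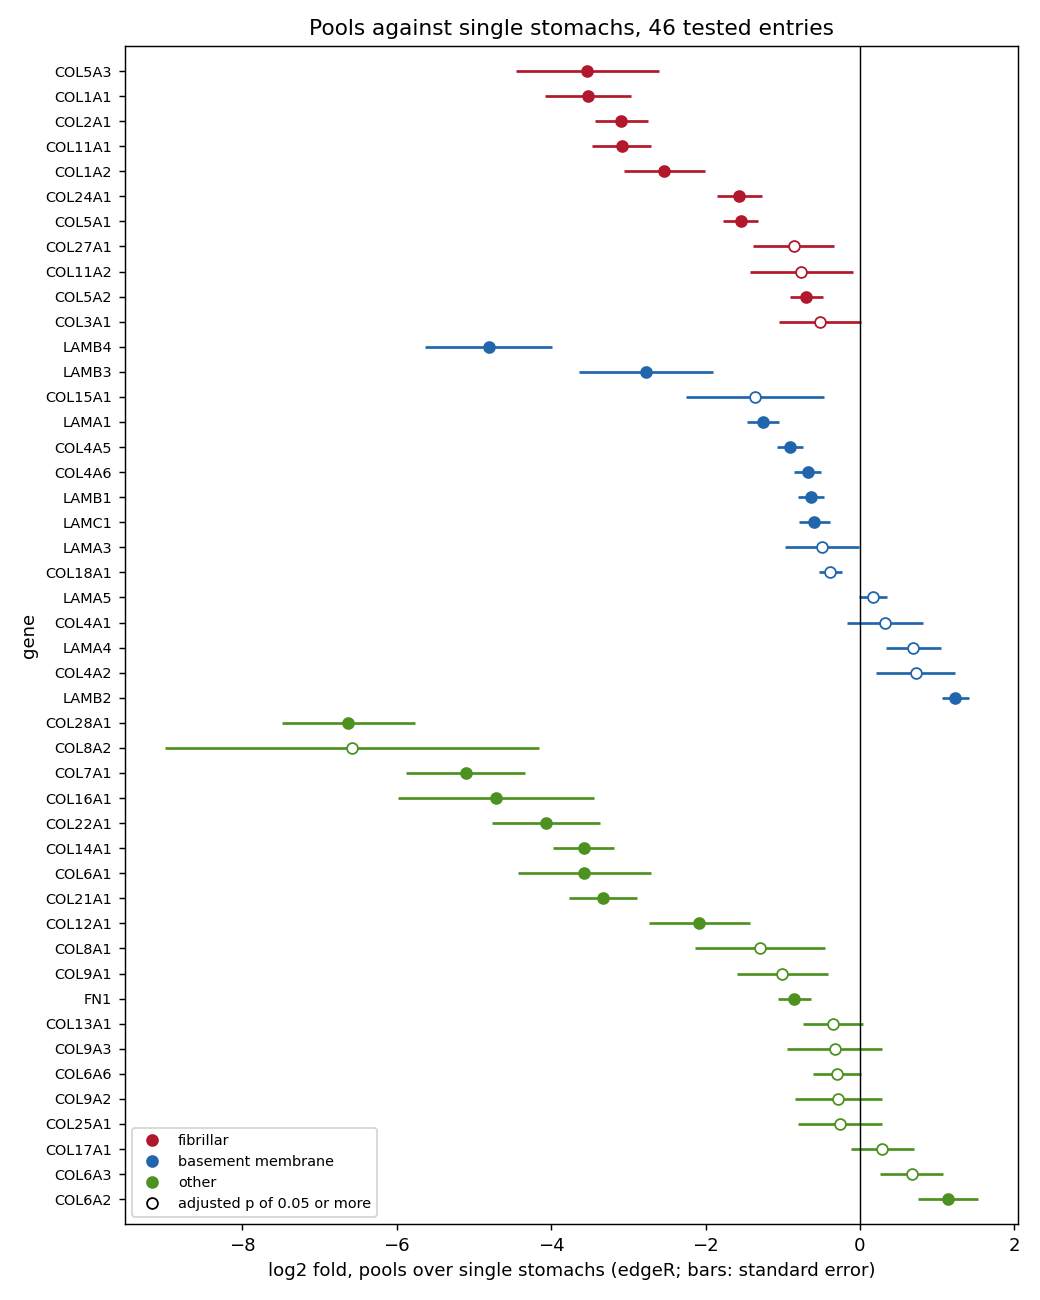
Log2 fold, pools over single stomachs, with its standard error (x axis) for each of 46 tested genes (y axis), coloured by class, with filled points where the adjusted p is under 0.05. All 11 fibrillar collagens lie below 0, LAMB2 (1.24) and COL6A2 (1.14) are the filled points above 0, and the point of COL8A2, with 0 counts in every pool, depends on the prior count.

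Pool left 8 differed from the other 3 pools. After its values were seen, genes were counted whose level in left 8 was at least 1 CPM and over 2-fold above each other pool. There were 11 of 46, against 5.64% of rows: COL1A1, COL1A2, COL5A3, LAMB4, COL6A1, COL14A1, COL21A1, COL22A1, COL7A1, COL17A1 and COL28A1. COL5A3 was 26.1 CPM in left 8 and 2.34, 0.441 and 0.144 in left 7, right 7 and right 8. LAMB4 was 7.05 and 1.73, 0.294 and 0.0721, and COL22A1 10.0 and 0.866, 0.637 and 0.577. All but COL17A1 also had lower levels in pools than in single stomachs by the test above. In the opposite direction, each other pool had to be at 1 CPM or more. Then 5 of 46 were over 2-fold lower in left 8 than in each other pool, against 6.25% of rows: LAMB3, COL6A2, COL6A6, COL13A1 and COL25A1.

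The side difference was also tested for a difference between sources. In edgeR 0 of 47 genes and 0% of 24262 rows passed. At an unadjusted p under 0.05 there were 15 of 47, against 7.88% of rows. The lowest adjusted p was 0.162, for COL28A1, whose left-minus-right log2 difference was larger in pools by 4.38 ± 0.83, and for COL5A3, with 5.57 ± 1.06. DESeq2 passed 5 of 47 genes and 0.569% of rows, namely COL5A3, LAMB4, COL6A1 and COL28A1 with a positive term and COL4A5 with a negative one. All those with a positive term were among the genes counted above as high in left 8. They rest on the same values and are no separate evidence. Without left 7, where left 8 is the one left pool and is taken to vary like the other libraries, edgeR passed 14 genes, 7 in each direction, and 6.17% of rows. The epidermal marker sum of left 8, 1651 CPM, lay between those of the other pools and the single stomachs, as did its mesothelial sum of 111. Of the epidermal sum KRT15 made 1249 CPM. KRT5, KRT15, ITLN1 and TP63 each lay between as well. TP63 was 0.455 CPM, against 0 to 0.144 in the other pools and 2.38 to 21.9 in single stomachs. KRT14, at 4.02 CPM, lay above every other library (0.0490 to 2.64). Of that mesothelial sum MSLN made 106 CPM, and the mesothelial markers were mixed. UPK3B was 2.80 CPM in left 8 and 0 to 0.0866 in the other pools. WT1 was 2.42 and 6.76 to 16.9, and TBX18 was 0 and 0.606 to 1.37. The gut mesenchyme sum of left 8 was 213 CPM, against 361 to 519 in the other pools, and its endothelial sum 71.5, against 143 to 195. Its foregut epithelium sum was 10126 CPM, against 4478 to 6947. Counts were found in 79.0% of rows in left 8 and in 87.0% to 90.3% in the other pools. Their part in the left 8 values was not tested.

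**Figure D4:**
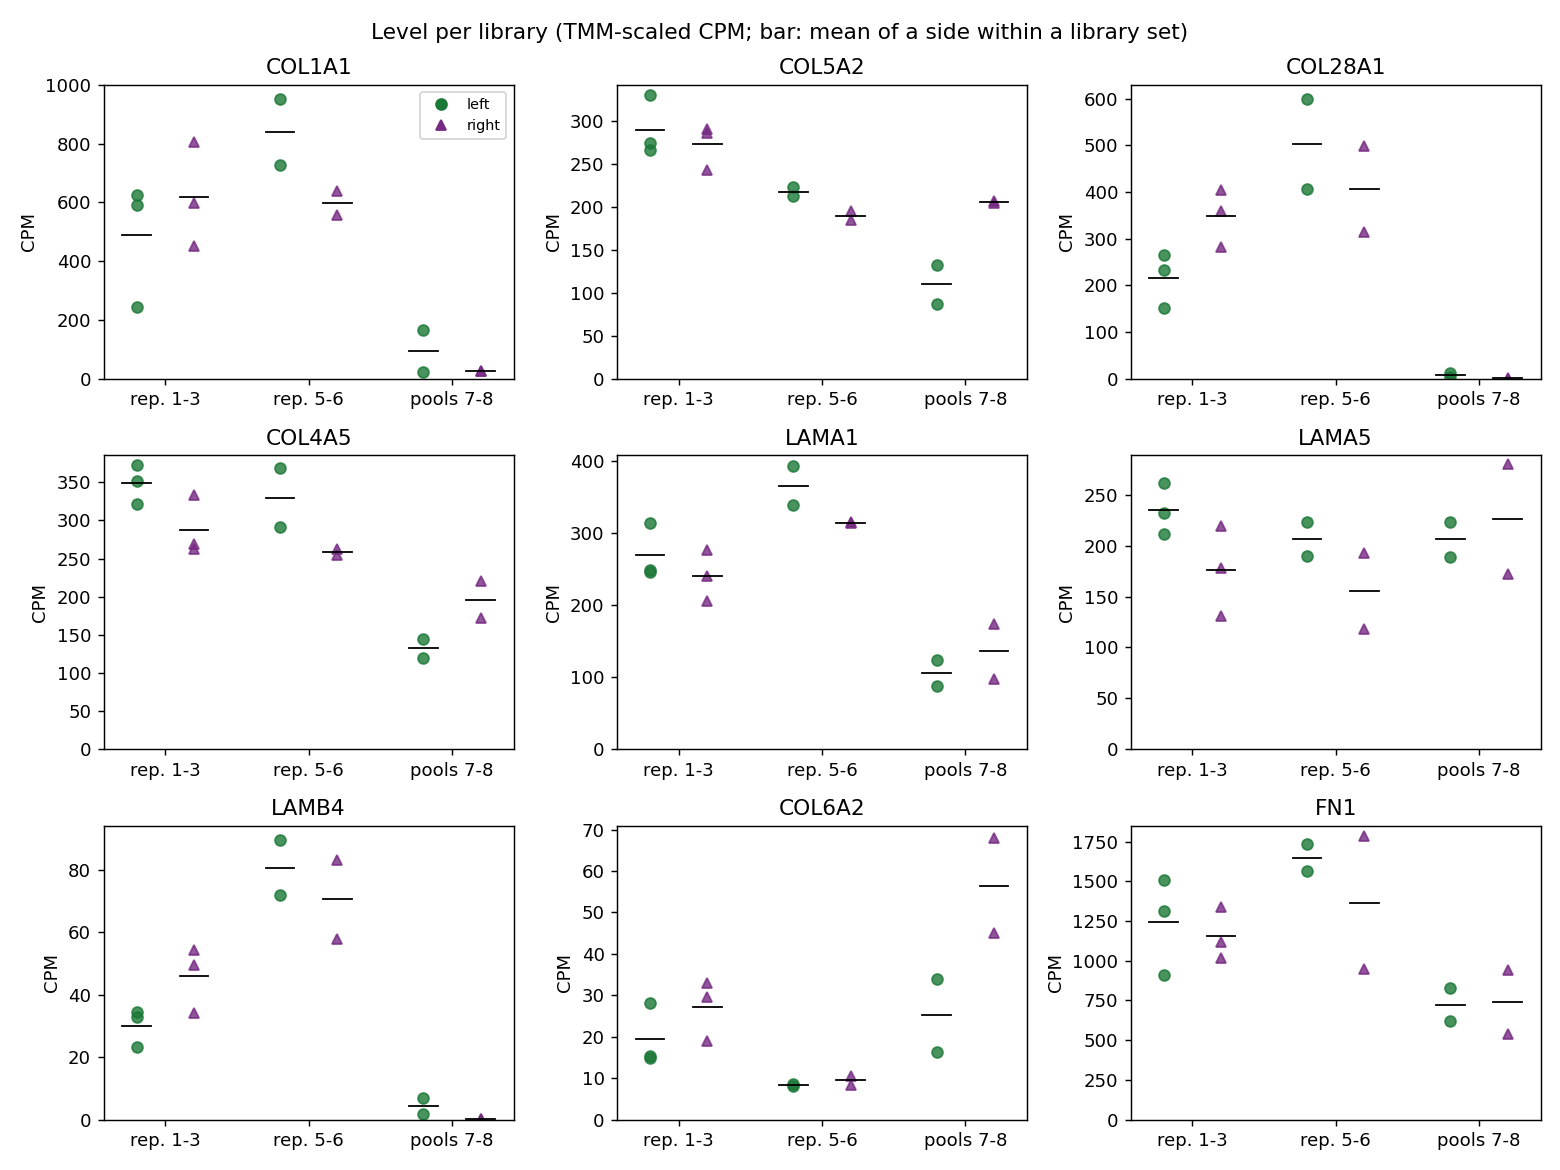
CPM (y axis) of 9 genes in each library, by library set and side, with a bar at the mean of each side within a set. COL1A1, COL28A1 and LAMB4 are low in pools, LAMA5 overlaps between all sets (118 to 281 CPM over all libraries), and COL6A2 is lowest in replicates 5 and 6 (8.11 to 10.6 CPM).

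Replicates 1 to 3 and 5 and 6 formed separate sets in the data, which no label describes, so their levels are given with no test. Over 2-fold higher in replicates 1 to 3 were 4 of 46 genes, against 5.76% of rows, and over 2-fold lower 6, against 6.64%. COL4A1 was 19.3, 14.1 and 7.74 CPM in left 1, 2 and 3 and 16.9, 15.2 and 14.4 in right 1, 2 and 3. It was 4.48 and 3.58 in left 5 and 6 and 3.31 and 4.54 in right 5 and 6, so the sets did not overlap. COL4A2 was 6.66 to 16.6 CPM in replicates 1 to 3 and 2.42 to 2.91 in 5 and 6. COL6A2 was 15 to 33.0 and 8.11 to 10.6, and COL9A3 was the fourth. In the other direction LAMB3 was 2.02 to 3.84 CPM in replicates 1 to 3 and 13.2 to 20.5 in 5 and 6. COL8A1, COL8A2, COL9A1, COL12A1 and COL16A1 completed the 6. For COL16A1 this came from left 6 and right 6, at 119 and 132 CPM. Its left 5 and right 5 were at 7.31 and 3.92 CPM, and replicates 1 to 3 at 5.00 to 29.9. The medians over the genes and over all rows were -0.09 and 0.01 on the log2 scale. Ranges that did not overlap numbered 5 higher, against 18.3% of rows, and 6 lower, against 18.8%.

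Chains that share a trimer were compared by their count ratio over the 14 libraries. The size of such a ratio depends on transcript length, so its variation alone is described. COL4A5 over COL4A6 ran from 3.12 to 4.13, a 1.32-fold range, while the chains themselves ranged 3.10-fold and 2.89-fold. COL1A1 over COL1A2 ran from 1.57 to 4.23, while the chains ranged 42.5-fold and 21.3-fold, and the ratio was 3.18 to 4.23 in single stomachs and 1.57 to 2.30 in pools. LAMB1 over LAMC1 ran from 1.13 to 1.93. COL4A1 over COL4A2 ran from 0.679 to 1.58, and COL2A1 over COL11A1, chains of different collagens found in the same fibrils, from 0.638 to 1.18. LAMA1 over LAMA5, alternative alpha chains, was 1.06 to 1.57 in replicates 1 to 3, 1.52 to 2.67 in replicates 5 and 6, and 0.393 to 0.652 in the pools. COL6A1 over COL6A2 ran from 0.00106 in right 8 to 3.53 in left 5.

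Genes that make, bind or cut these proteins were taken from 5 lists. Between the sides 0 genes of any list passed in edgeR, where 0% of rows did. Between pools and single stomachs, of 26 tested genes for collagen folding, modification and processing, 12 were lower in pools and 3 higher, with a median log2 fold of -0.63. COLGALT2, which adds galactose to collagen hydroxylysine, was 51.1 ± 9.03 CPM in single stomachs (SD, n = 10) and 12.1 ± 2.79 in pools (SD, n = 4), a fold of -2.07 ± 0.19 (edgeR adjusted p = 1.02e-05). P3H1 and CRTAP, partners in the prolyl 3-hydroxylation complex, fell by 1.15 ± 0.14 and 1.04 ± 0.15, and FKBP10, a collagen prolyl isomerase, fell by 1.15 ± 0.16. The 3 that were higher were PCOLCE2, P4HB and PPIB.

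Of 14 basement membrane partners 6 were lower in pools and 1 higher, with a median of -0.50. SPARC, a collagen-binding secreted protein, was 380 ± 38.3 CPM in single stomachs and 209 ± 54.6 in pools, a fold of -0.89 ± 0.13 (edgeR adjusted p = 0.000290). AGRN, a heparan sulfate proteoglycan that binds laminin, fell by 1.31 ± 0.22. NTN1, a laminin-related guidance protein, fell by 2.23 ± 0.38, and FBLN2 by 2.65 ± 0.55. Of 21 receptors 5 were lower and 3 higher, with a median of -0.40. ITGB4, the hemidesmosome integrin chain that binds laminin-332, was 35.9 ± 15.1 CPM in single stomachs and 3.58 ± 4.21 in pools, a fold of -3.51 ± 0.60. ITGA2, a chain of a collagen receptor, fell by 1.29 ± 0.30. DDR1, a receptor tyrosine kinase for collagen on epithelia, rose by 1.03 ± 0.14, and ITGA7, a laminin receptor chain of muscle, by 1.99 ± 0.37.

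Of 9 proteases and inhibitors 1 was lower in pools, MMP2, with a fold of -2.28 ± 0.79 (edgeR adjusted p = 0.0405), and 0 were higher. Of 16 other matrix genes 8 were lower and 0 higher, with a median of -0.93. LUM and DCN, small proteoglycans on collagen fibrils, fell by 4.32 ± 0.58 and 4.03 ± 0.83. LUM was 119 ± 28.6 CPM in single stomachs and 6.53 ± 8.13 in pools. THBS1, a matricellular protein, fell by 2.27 ± 0.31, and POSTN, which binds collagen and fibronectin, by 1.19 ± 0.30. These list counts stand beside 17.7% of all rows that were lower and 12.7% that were higher in pools.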

How the data were processed

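RNA from 14 libraries had been counted per row by the authors. The deposited table holds raw read counts for 26940 rows, 19415 of them reviewed human UniProt entries, and the submitters' processing notes list the aligners Bowtie and Bowtie2 (2.1.0), the trimmer Trimmomatic, SAMtools (0.1.19) and the package DESeq, in no order. Isoform rows and close paralogs can split or share reads. The deposited normalized table was not used. Counts were filtered with filterByExpr, scaled by TMM and tested with edgeR 4.0.16 (limma 3.58.1, R 4.3.3), fitting side and library source over 14 libraries, and pair and side over 10. An SE is the fold divided by the root of F. DESeq2 1.42.0 was an alternative. CPM are counts over TMM-scaled totals. Adjusted p-values are Benjamini-Hochberg over all rows, called under 0.05. All p-values rest on variation among these libraries. Those of the contrast between sources count both libraries of a title pair as independent.

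The fit over 14 libraries was tested on simulated data that held no difference between sources, library sets or pairs. No 2 libraries of the same side agreed within sampling noise (chi-square of 15.8 to 359 for each degree of freedom). Left libraries were not compared with right ones in this way. The pairing rests on titles. Deviations of same-numbered libraries from their side's mean correlated at 0.577, 0.579, 0.601, 0.733 and 0.801 for pairs 1, 2, 3, 5 and 6. These include the difference between library sets. Within library sets the values were 0.425, 0.205, 0.0545, 0.417 and 0.417. Those of pairs 5 and 6 are the same value, because 2 libraries of a side deviate equally from their mean.

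The genes and lists were chosen with earlier results of these data known. Per-library values are given for a fixed set of genes and for the 3 with the smallest p in each direction, and up to 4 genes past the threshold per related list, by smallest p. One item is not reported here.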

Additional observations from a re-analysis of the deposited data

Results flagged for a closer look

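In 92 groups of 7 libraries (46 genes on each side), the gap of an end library to its nearest neighbour was divided by the range. In 6 groups this was above Dixon's 95% critical value of 0.568. That value gives about 1 in 20 by chance for 7 like libraries. Each group here mixed single stomachs with pools, so that rate need not hold. In COL16A1, a FACIT collagen, both libraries of pair 6 stood far above the rest of their side: left 6 was at 119 CPM, with the other left libraries at 0.433 to 12.8, and right 6 was at 132 CPM, with the other right libraries at 1.52 to 29.9. LAMA4 was highest in left 5, at 7.23 CPM, and COL9A3 was highest in left 1, at 3.06 CPM, and in right 3, at 2.57 CPM. COL25A1, a transmembrane collagen of neurons, was lowest in left 8, at 0 CPM, with the other left libraries at 1.79 to 3.06.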

How the results depend on the processing

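The count of genes that differed between sides stayed at 0 over the 14 libraries and at 0 within pairs under every alternative run: DESeq-type size factors, library totals, no filter, at least 10 counts, DESeq2, rows summed by entry name, a threshold of 0.1, other terms or samples, and each library or pair left out. With the replicate block (pair as a term, pools sharing 1 level) it was 0, and without the block in the single-stomach libraries 0, so the block changed no call. The 24 lower calls in pools became 13 in right libraries alone (16 in left alone), and 20 to 25 with each library left out. The fits of one side hold fewer libraries and do not count both libraries of a title pair. What lowered their counts was not tested. The 2 higher calls became 1 with library totals, 1 in left or in right libraries alone, and 1 to 2 with each library left out. Against replicates 5 and 6 they became 4, but that set was drawn from these data, so the 4 cannot be read as a test. Library totals moved the median of all rows from -0.10 to -0.27. The difference of sides between sources, 0 genes, became 5 with DESeq2 and ran from 0 to 14 with each library left out, 14 without left 7. The cause was not tested. Of 1098 pool folds recomputed for single genes, 1034 kept their side of the threshold. No fold that passed changed sign, while some that did not pass did, among them COL3A1, COL4A1, COL9A3 and COL17A1. Genes under about 1 CPM, such as COL11A2, LAMA3 and COL15A1, rest on few counts in the shallow pools.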
